A study of Mus musculus with 4 samples.

Results

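Kinesins are motor proteins that step along microtubules with energy from ATP. One set of them builds and runs the mitotic spindle, where they push the poles apart, move and align the chromosomes, correct faulty attachments and organise the midzone for cytokinesis; most of these are made mainly around division. The other set carries vesicles, organelles and ciliary proteins through the cytoplasm of dividing and resting cells alike, and several of its members are best known from neurons, whose axons depend on long-range transport.

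The kinesin motor family was taken as every gene with a symbol of Kif and a digit that had an array probe to one of its RefSeq transcripts, which gave 34 of the 17466 genes with a named probe, on 55 probes. Mouse embryonic fibroblasts (MEFs), primary cells with a limited number of divisions, were compared at passage 7, when the cultures had entered replicative senescence, and at passage 2, when they were still growing, with 2 one-colour arrays per passage. No age, sex or strain of the embryos and no transgene or agent was named, and both passages were grown in DMEM with 10% serum. RNA of 3 independent cultures was pooled before hybridisation, so the p-values measure only the spread between 2 arrays of a pool, which may be technical, and all 4 arrays lay on 1 slide.

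The kinesins were contrasted as 10 mitotic motors, on 18 probes, and 24 other kinesins, on 37 probes, most of them transport motors. Kif14 and Kifc1, also mitotic motors, as well as Kif7 and Kif26b, had no matched probe and were not analysed here. Levels below are log2 of the processed signal relative to the 75th percentile of the same array, so that a level can be compared between arrays for 1 probe but not between genes. A gene was tested where both arrays of a passage, 7 or 2, gave a signal well above background, and was called when limma's adjusted p was under 0.05 and the change at least 2-fold. All 10 mitotic motors and 21 of the 24 others were tested, beside 13850 genes in all.

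The arrays differed in brightness, with a 75th percentile of 964 and 402 at passage 7 and of 1024 and 1404 at passage 2. Between 65.8% and 72.7% of probes were well above background on an array, and none was saturated. All 11 fibroblast markers with a probe were well above background on all 4 arrays. This does not establish the cell type, since most probes passed, as did all 10 epithelium markers on both passage 2 arrays. The summed level of the fibroblast markers was 717 and 1060 times the 75th percentile at passage 7 and 581 and 472 times at passage 2. S100a4 and Fn1, neither of them called, had the brightest probes and weigh most in it. Of the 11, 3 fell (Lum by 8-fold, Pdgfra by 5.83-fold and Col6a1 by 2.95-fold) and 8 were not called. Between passages, 9.42% of all tested genes fell and 9.99% rose, with a median log2 change over all genes of 0.20. In such bulk RNA, fewer cells of a type and less RNA per cell cannot be told apart.

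A short motif was present in most promoters of the mitotic kinesins and few of those of the other kinesins, and 6 promoter stretches are shown for it. Each is the 100 bases before the transcript start, from RefSeq (GRCm38.p6), 5′ to 3′ on the gene's own strand, and capitals mark matches to the motifs TTTGAA and CCAAT on either strand (TTCAAA and ATTGG when reversed). TTTGAA is the core of the cell cycle genes homology region (CHR), an element known from promoters of genes expressed late in the cell cycle, and CCAAT is the box bound by NF-Y. Kif11, Kif15, Kif22 and Kif18b were chosen as mitotic motors that fell with motifs in this stretch, Kif18a as one that fell without, and Kif3b as a transport motor that rose. The stretches lie at chr19:37376282-37376381, plus strand, chr9:122950981-122951080, plus strand, chr7:127042421-127042520, minus strand, chr11:102925125-102925224, minus strand, chr2:109280638-109280737, plus strand, and chr2:153291316-153291415, plus strand.
Kif11: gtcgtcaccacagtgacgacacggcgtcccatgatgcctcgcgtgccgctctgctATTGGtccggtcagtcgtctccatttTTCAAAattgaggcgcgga
Kif15: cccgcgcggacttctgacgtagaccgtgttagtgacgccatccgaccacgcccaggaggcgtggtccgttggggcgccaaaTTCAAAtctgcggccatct
Kif22: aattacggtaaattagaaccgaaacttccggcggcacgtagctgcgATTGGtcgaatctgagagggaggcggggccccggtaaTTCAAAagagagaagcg
Kif18b: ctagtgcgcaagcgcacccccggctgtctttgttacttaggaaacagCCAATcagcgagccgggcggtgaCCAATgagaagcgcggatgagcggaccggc
Kif18a: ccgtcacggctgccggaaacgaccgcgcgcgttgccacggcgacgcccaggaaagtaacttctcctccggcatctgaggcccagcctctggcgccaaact
Kif3b: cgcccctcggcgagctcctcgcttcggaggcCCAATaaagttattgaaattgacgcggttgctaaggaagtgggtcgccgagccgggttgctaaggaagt

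TTTGAA was searched on both strands in windows of 300 bases, 250 before to 50 after the start. It occurred in 8 of 9 mitotic kinesin windows (88.9%) and in 2 of 23 windows of 19 other kinesins (8.7%), and 17.9% of all 32851 windows in the table held it. Kif20a, Kif5a, Kif5b, Kif13b, Kif19a and Kif21b had no window in the table. In Kif11 and Kif15 a match began 19 bases before the start, and in Kif22 it began 17 bases before; Kif15 and Kif22 had another at 234 and 215 bases before it. In Kif23, Kif18b, Kif20b and Kif4 the matches began 2, 3, 7 and 19 bases after the start base, so that they lie outside the printed stretches, and Kif20b had another 13 bases after it. The match in Kif2c was 103 bases before the start. Kif18a was the mitotic window without the motif. Thus 7 of the 8 mitotic windows with a match had one within 19 bases of the start. The 2 other kinesin windows with a match, of Kif1a and Kif27, had theirs at 44 and at 73, 89 and 191 bases before it. The limit of 19 bases was read from these same matches. How many of all windows hold a match so near the start was not counted.

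The CCAAT box showed a smaller contrast. It was present in 5 of 9 mitotic windows (55.6%), in 8 of 23 other windows (34.8%) and in 37.4% of all windows. Both motifs together occurred in 5 mitotic windows, 1 other kinesin window and 6.95% of all windows. An E2F-like motif, GGCGGGAA, was in none of the mitotic windows, in 1 other window (4.35%) and in 2.19% of all. Only this exact string was searched, so other forms of the E2F site were not counted, and their absence is not shown. These matches describe letters in the sequence, not binding sites, and the motifs were chosen with the behaviour of the kinesins already known.

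Mitotic kinesins fell together at passage 7. Of the 10 tested, 9 were called lower, by 3.55-fold to 9.22-fold, and 1, Kif20a, was not called. Both passage 7 arrays were below both passage 2 arrays for the same 9 genes, an order found for 27.8% of all tested genes, while 9.42% of all genes were called lower. The median change of the 10 genes was -2.34 on the log2 scale, or -2.54 relative to the median of all genes. The members were known to fall from earlier work on these arrays, so the count describes the family and is no independent test.

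**Figure D1:**
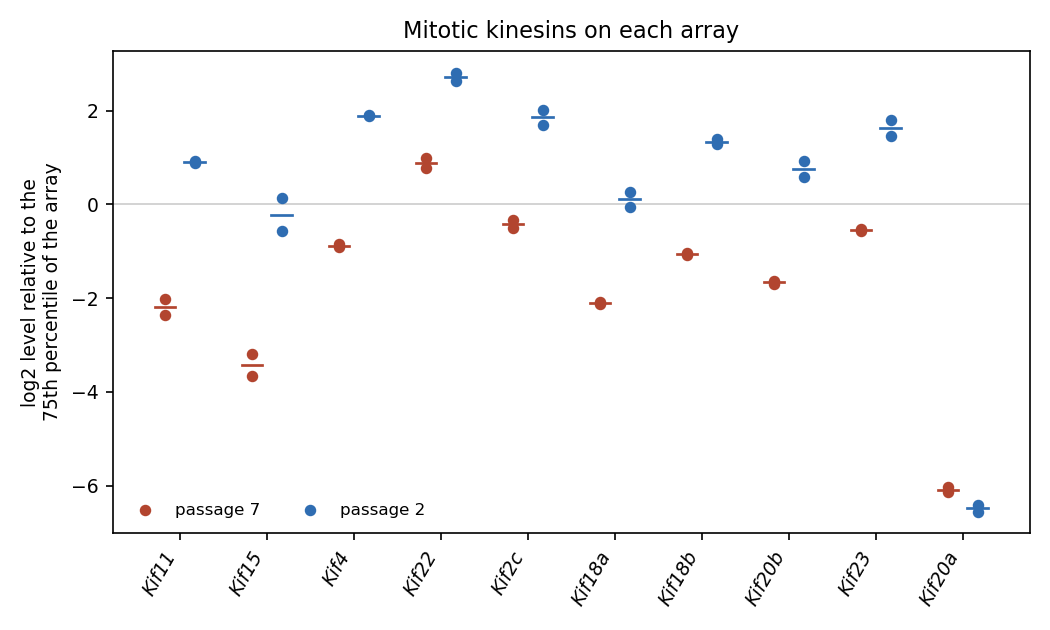
Level of each mitotic kinesin on the 4 arrays, as log2 relative to the 75th percentile of the array; points are arrays (passage 7 in red on the left, passage 2 in blue on the right, n = 2 each) and short bars their means. For 9 of 10 genes the passage 7 points lie below both passage 2 points, and Kif20a lies near -6 on all arrays; heights can be compared between passages for a gene, not between genes.

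The motors that set up the spindle fell. Kif11 (Eg5), the kinesin-5 that slides antiparallel microtubules to separate the spindle poles, had levels of -2.01 and -2.35 at passage 7, against 0.89 and 0.92 at passage 2. The groups were well apart, and the change was -3.08 ± 0.20 (SE), an 8.48-fold fall (adjusted p = 0.0051). Its second probe moved by -3.83, with 1 of 2 passage 7 arrays well above background. Kif15, the kinesin-12 that helps Kif11 keep the spindle bipolar, had -3.65 and -3.20 at passage 7, against -0.57 and 0.13 at passage 2. Both passage 7 arrays were far under the lower passage 2 array, and the change of -3.21 ± 0.32, 9.22-fold, had an adjusted p of 0.0076. Among the genes' brightest probes it was the largest change, but the order of the falls was not stable: with normexp background correction Kif15 changed by -1.50, Kif11 by -1.88 and Kif4 by -2.46.

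The chromokinesins, which bind chromosome arms, also fell. Kif4, which helps compact chromosomes and sets the length of the central spindle with Prc1, had -0.85 and -0.91 at passage 7, against 1.89 and 1.90 at passage 2. The arrays of each passage nearly coincided, and the change of -2.78 ± 0.17, 6.86-fold, had an adjusted p of 0.005. Its other probes moved by -3.05 and -2.73, the first with 1 of 2 passage 7 arrays well above background. Kif22 (Kid), which pushes chromosome arms towards the spindle equator, had 1.00 and 0.78 at passage 7, against 2.81 and 2.63 at passage 2. With -1.83 ± 0.20 (3.55-fold, adjusted p = 0.0086) it had the smallest fall of the 9, although 1 of its other probes moved by -2.53 and the other by -1.81. Pseudogenes of both genes are listed in mouse (Kif4-ps and Kif22-ps), and whether the probes also read them was not tested.

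Motors that align chromosomes and shorten microtubules fell by similar amounts, though not under every setting. With normexp background correction Kif2c changed by -2.22, Kif18b by -1.76 and Kif18a by -1.25. Kif2c (MCAK), the kinesin-13 that depolymerises microtubules at centromeres to release faulty attachments, had -0.34 and -0.51 at passage 7, against 1.70 and 2.02 at passage 2. Its change was -2.29 ± 0.21 (4.88-fold, adjusted p = 0.0066). Kif18a, which dampens chromosome movement at the metaphase plate, had -2.08 and -2.13 at passage 7, against -0.05 and 0.27 at passage 2, a change of -2.21 ± 0.20 (4.63-fold, adjusted p = 0.0066). Kif18b, which limits the length of astral microtubules, had -1.04 and -1.07 at passage 7, against 1.39 and 1.28 at passage 2, a change of -2.39 ± 0.18 (5.26-fold, adjusted p = 0.0052). In all 3 genes the passages did not overlap.

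Of the 3 cytokinesis motors, 2 fell. Kif23 (MKLP1), which forms the centralspindlin complex of the midzone with Racgap1, had -0.56 and -0.53 at passage 7, against 1.81 and 1.45 at passage 2. It fell by 4.52-fold, with a change of -2.17 ± 0.21 (adjusted p = 0.0071). Kif20b, a kinesin-6 needed to complete cytokinesis, had -1.69 and -1.63 at passage 7, against 0.59 and 0.93 at passage 2. Its change was -2.42 ± 0.21 (5.36-fold, adjusted p = 0.0061), and its second probe gave the same -2.42.

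Kif20a (MKLP2), the kinesin-6 that brings the chromosomal passenger complex with Aurkb to the midzone, was the exception. It had -6.14 and -6.03 at passage 7, against -6.42 and -6.55 at passage 2. The passage 7 arrays were slightly above the passage 2 arrays, and the change of 0.40 ± 0.18 did not pass the test (adjusted p = 0.17) and was -0.05 in the authors' value table. This probe was dim: its signal was well above background on 1 of 2 passage 7 arrays and on 2 of 2 passage 2 arrays. A second probe with like signal moved by 0.23 ± 0.26, and the third was not well above background on any array. Whether the Kif20a probes read the transcript in these cells was not tested.

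Probe by probe, 17 of the 18 mitotic probes were tested and 15 of them fell, where 8.53% of 30873 tested probes of the array did. The 2 tested probes that did not fall were those of Kif20a. In each of the 5 mitotic genes with more than 1 tested probe, the probes had the same sign and the same call. With other choices of scaling, filter, probe and variance model, and without each array in turn, the count stayed at 9, with 1 exception. After normexp background correction, limma called none of the genes on the array. The 9 motors then changed by -2.46 to -1.25, each at an adjusted p of 0.56, and 7 had an unadjusted p under 0.05. With the background of spots marked as uneven replaced, a setting chosen after seeing the data, 9 were called again.

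Transport and other kinesins did not follow the mitotic set. Of 21 tested, 5 rose and 16 were not called, while 9.99% of all tested genes rose. Their median change was 0.35, or 0.15 relative to all genes. Both passage 7 arrays were above both passage 2 arrays for 12 of them, below for 4 and overlapping for 5, where 40.7% of all genes were above and 27.8% below. The share that rose, 5 of 21, was thus above the share of all genes, on a small count. By limma 0 fell. At an unadjusted p under 0.05 by limma, 3 of the 21 were lower and 8 higher. Among all 13850 tested genes, 2414 were lower and 3350 higher at that threshold. Kif6, Kif12 and Kif17 were too dim to be tested, with levels between -9.33 and -6.51.

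**Figure D2:**
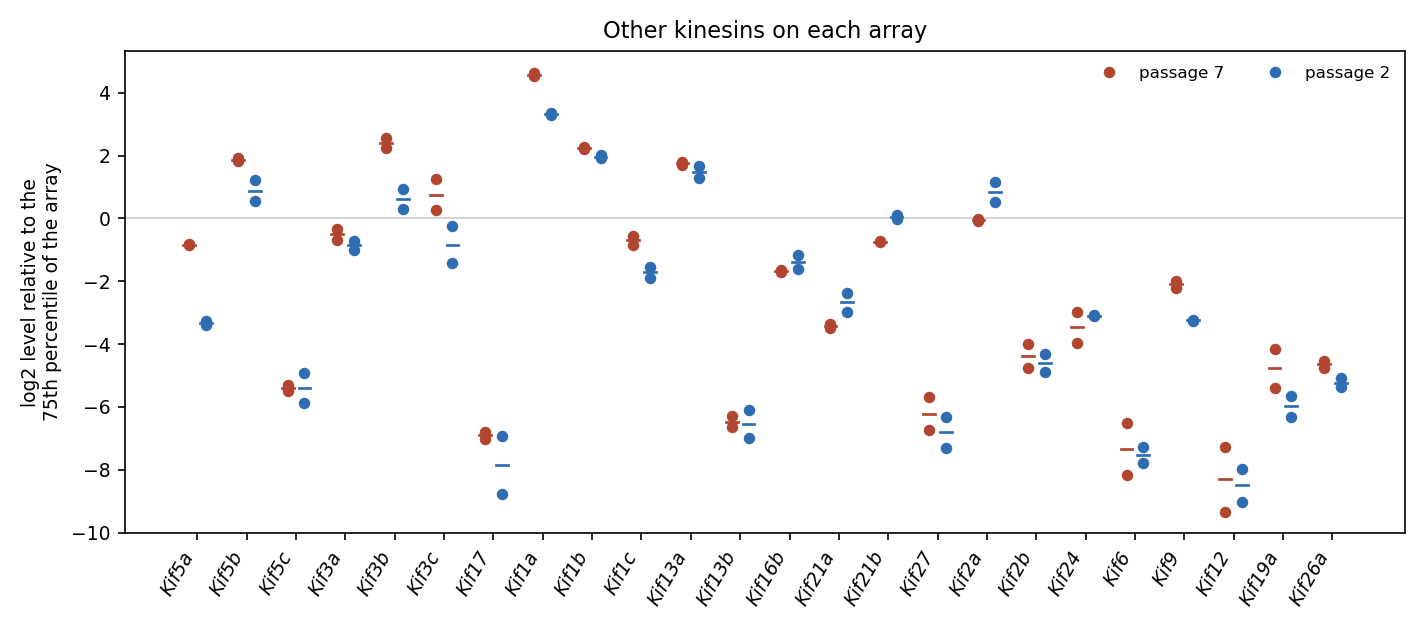
Level of the 24 other kinesins on the 4 arrays, as log2 relative to the 75th percentile of the array; points are arrays (passage 7 in red on the left, passage 2 in blue on the right, n = 2 each) and bars their means. Kif5a, Kif3b, Kif1a, Kif9 and Kif1c were called higher at passage 7, and most of the rest overlap or differ little; heights can be compared between passages for a gene, not between genes.

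Kinesin-1 carries vesicles and mitochondria outward along microtubules, as a pair of heavy chains (Kif5a, Kif5b or Kif5c) and light chains. Kif5a, a heavy chain best known from neurons, had -0.82 and -0.84 at passage 7, against -3.25 and -3.40 at passage 2. The groups were far apart, and the change of 2.50 ± 0.18, 5.64-fold, was the largest rise of the family (adjusted p = 0.0052). Kif5b, the heavy chain of most cell types, had 1.91 and 1.84 at passage 7, against 0.54 and 1.22 at passage 2. The groups did not overlap, but the passage 2 arrays were far apart and its change of 1.00 ± 0.28 did not pass the test (adjusted p = 0.064). Kif5c, another neuronal heavy chain, changed by 0.00 ± 0.36, with overlapping arrays from -5.86 to -4.91.

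Kinesin-2 drives outward transport in cilia and along axons, as a pair of Kif3a with Kif3b or Kif3c and the accessory protein Kifap3. Kif3b had 2.55 and 2.24 at passage 7, against 0.93 and 0.30 at passage 2. It rose by 1.78 ± 0.29, which is 3.44-fold (adjusted p = 0.018). Its partners were not called: Kif3a changed by 0.35 ± 0.22 (adjusted p = 0.29) and Kifap3 by -0.20 ± 0.20 (adjusted p = 0.5). Kif3c, an alternative partner of Kif3a, had 0.28 and 1.24 at passage 7, against -0.23 and -1.43 at passage 2. The groups did not overlap, but the arrays of each passage were far apart, and its 1.59 ± 0.53 did not pass the test (adjusted p = 0.091). It was called with median scaling (1.42, adjusted p = 0.0082), in the authors' value table (1.31, 0.037) and with a trended, robust variance (1.59, 0.041), and its second probe moved by 0.61.

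Kinesin-3 moves vesicles and organelles. Kif1a, which carries synaptic vesicle precursors in axons, had 4.52 and 4.64 at passage 7, against 3.36 and 3.28 at passage 2. It rose by 1.26 ± 0.18, or 2.40-fold (adjusted p = 0.014), and its second probe by 1.23. Kif1c, a motor of secretory vesicles found in many cell types, had -0.85 and -0.55 at passage 7, against -1.90 and -1.53 at passage 2. Its rise of 1.01 ± 0.23 (2.01-fold, adjusted p = 0.04) lay just past both limits of the call. In the fit of all probes this probe was not called (adjusted p = 0.055), while a second probe was, with a change of 1.23 (adjusted p = 0.041). Kif1b, a carrier of mitochondria and synaptic vesicle precursors, had 2.26 and 2.21 at passage 7, against 1.91 and 2.01 at passage 2, a change of 0.28 ± 0.18 (adjusted p = 0.29). Kif13a, which moves endosomes and cargo from the trans-Golgi network, had 1.69 and 1.81 at passage 7, against 1.29 and 1.66 at passage 2, a change of 0.27 ± 0.21 (adjusted p = 0.39). Both were thus near the median of all genes.

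Outside the transport groups, Kif9 was the only other kinesin called. Kif9, a kinesin-9 known from motile cilia and sperm flagella, had -2.21 and -1.99 at passage 7, against -3.26 and -3.22 at passage 2. Its change was 1.14 ± 0.19 (2.21-fold, adjusted p = 0.018). Kif2a, a kinesin-13 relative of Kif2c that depolymerises microtubules in interphase cells and neurons too, had -0.07 and -0.02 at passage 7, against 0.52 and 1.16 at passage 2. Its arrays did not overlap, but -0.89 ± 0.27 did not pass the test (adjusted p = 0.075). Kif21b, a kinesin-4 that restrains microtubule growth, changed by -0.78 ± 0.18 at an adjusted p of 0.039, under the 2-fold limit. The 16 kinesins not called ranged from -0.89 to 1.59, with a median of 0.25.

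**Figure D3:**
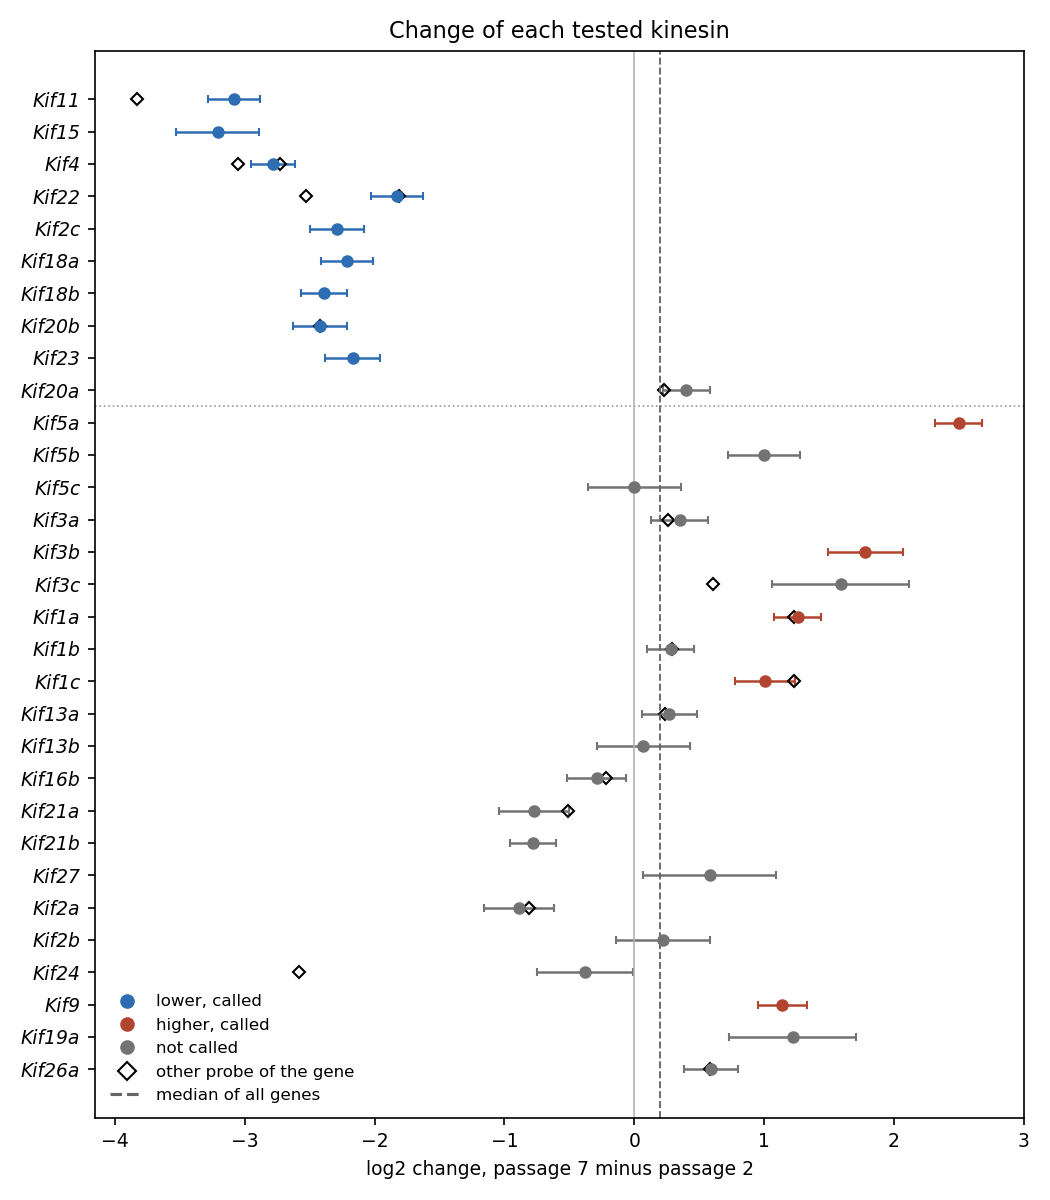
Change of each of the 31 tested kinesins on the log2 scale, passage 7 minus passage 2, with its standard error from limma (n = 2 arrays per passage); mitotic kinesins are above the dotted line and the other kinesins below it. Filled circles are blue where called lower, red where called higher and grey where not called, open diamonds are other tested probes of the gene, and the dashed line is the median of all genes (0.20). The 9 called mitotic motors lie at -1.83 or lower, and no other kinesin lies below -0.89 by its brightest probe.

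Of 32 tested probes of the other kinesins, 6 rose and 1 fell, where 8.72% of all probes rose. The probe that fell belongs to Kif24, a kinesin-13 of the centrioles that holds back cilium growth, and is named here after its values were seen. Its brighter probe had -3.97 and -2.97 at passage 7, against -3.07 and -3.11 at passage 2, with overlapping arrays and a change of -0.38 ± 0.37 (adjusted p = 0.48). Its second probe had -7.30 and -6.77 at passage 7, not well above background on either array, against -4.34 and -4.57 at passage 2. That probe was at least 4.31-fold lower at passage 7 (adjusted p = 0.012 in the fit of all probes). The bound is the mean at passage 2 against, for each passage 7 array, the lowest signal well above background or the probe's own if higher. Of the 11 other kinesins with more than 1 tested probe, 11 had probes of 1 sign and 9 had probes of 1 call.

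The 5 rises differed in how well their calls held. Kif5a kept its call in 14 of 15 alternative settings, as each of the 9 mitotic motors did, Kif3b in 13, Kif1a in 8, Kif9 in 7 and Kif1c in 4. Kif1c lost its call whichever array was left out (adjusted p from 0.057 to 0.22). Kif9 lost its call without passage 7 replicate 1 (adjusted p = 0.077), passage 7 replicate 2 (0.14) or passage 2 replicate 2 (0.051). Kif1a lost its call without passage 7 replicate 1 (adjusted p = 0.069) or replicate 2 (0.095), and Kif3b without passage 7 replicate 1 (0.058). Without passage 7 replicate 1, 2 of the 21 were called higher, Kif5a and Kif19a, and without passage 7 replicate 2 these were Kif5a and Kif3b. Normexp background correction called none by limma, with 1 rise at an unadjusted p under 0.05. In the authors' value table, Kif2a was called lower and 3 of the 21 higher (Kif5a, Kif3b and Kif3c), while Kif1a changed by 0.79 and Kif9 by 0.82, under the 2-fold limit.

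Some markers of other cell types moved beside the rising kinesins, in small counts. Among all tested genes 9.99% rose and 9.42% fell, and the counts below stand beside these shares. The summed level of 10 neuron markers was 5.49 and 5.72 at passage 7, against 2.46 and 2.82 at passage 2, beside the rises of Kif5a and Kif1a. Among the 7 of these that were tested, 2 rose (Map2 and Stmn2) and 3 fell (Nefl, Nefm and Elavl4, with changes of -2.38, -1.67 and -1.27). Map2 and Stmn2 had the brightest probes of the list at passage 7 and weigh most in its sum. Rbfox3, a defining marker of mature neurons, was not well above background on any array. The summed level of 10 motile cilium markers was 0.653 and 0.755 at passage 7, against 0.397 and 0.32 at passage 2, beside the rises of Kif9 and Kif3b. Of the 10, 6 were tested and 3 rose (Dnaic2, Rsph1 and Ccdc39), while Foxj1 changed by -0.51 and was not called. Rsph1 had the brightest probe of the list at passage 7 and weighs most in its sum. Dnah9, Dnaic1, Tekt1 and Sntn were not well above background on any array. The summed level of 8 muscle markers was 22.2 and 24.3 at passage 7, against 13.5 and 9.75 at passage 2, and 1 rose and 2 fell. This sum is mostly that of Acta1, the marker that rose, with 4.40 and 4.53 at passage 7, against 3.47 and 2.96 at passage 2. The other 7 had a negative change, and Des and Myh3 were the 2 called. Myh3 was not well above background on either passage 7 array, and was at least 8.7-fold lower. Macrophage markers (1 and 1.21 at passage 7, against 2.29 and 2.1 at passage 2) and epithelium markers (2.92 and 3.36 at passage 7, against 6.79 and 4.48 at passage 2) had lower sums. Of 7 tested macrophage markers 3 fell and 4 were not called. Fcgr1, among those that fell, was not well above background on either passage 7 array. Of 10 epithelium markers, 3 fell (Krt14, Krt8 and Krt18) and 2 rose (Cldn3 and Cldn4). The part of any of these cell types in the kinesin changes was not tested.

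Motors whose symbols fall outside the rule behaved in both ways. Cenpe, the kinetochore motor of the kinesin-7 class, had 0.64 and 0.57 at passage 7, against 3.00 and 3.27 at passage 2, and fell by 5.78-fold, a change of -2.53 ± 0.19 (adjusted p = 0.0054). Kifc2, a minus-end motor known from neurons, had -0.42 and -0.10 at passage 7, against -1.93 and -1.99 at passage 2, and rose by 1.70 ± 0.20 (adjusted p = 0.01). Kifc5b, closely related to the mitotic motor Kifc1, had -1.65 and -1.75 at passage 7, against 0.93 and -1.22 at passage 2. Its passage 2 arrays were far apart, and -1.56 ± 0.73 did not pass the test (adjusted p = 0.18). It changed by -2.63 and was called without passage 2 replicate 2 (adjusted p = 0.029), but by -0.48 without passage 2 replicate 1 (0.13). The authors' value table (-1.77, 0.04) and median scaling (-1.72, 0.0092) also gave a call. Its other probes moved by -1.56 and -1.79, the second of which was called in the fit of all probes (adjusted p = 0.036). Whether the Kifc5b probes also read Kifc1 was not tested.

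Most of a list of partners of the mitotic kinesins fell beside them. This list holds proteins that bind these motors, load them on the spindle or build the midzone. It also holds the kinase Cdk1 and genes of the kinetochore and spindle checkpoint, such as Ndc80, Nuf2, Cenpf, Mad2l1 and Bub1b. It names Kifc1, which had no matched probe, and a kinesin motor described above, which fell and is counted again here. The list is therefore wider than partners of kinesins alone. Of 22 tested, 19 fell and 3 were not called, where 9.42% of all genes fell, and the median was -2.31. Cit, the citron kinase that works with Kif14 at the midbody, had -8.03 and -7.28 at passage 7, not well above background on either array, against -3.00 and -4.93 at passage 2, and was at least 6.05-fold lower (adjusted p = 0.026). Hmmr, a spindle pole protein, had -6.37 and -5.96 at passage 7, against -3.28 and -1.70 at passage 2. It fell by 12.8-fold, a change of -3.68 ± 0.56 (adjusted p = 0.016), with 1 of 2 passage 7 arrays well above background.

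Of 19 tested light chains and cargo adaptors, 2 rose and 17 were not called, with a median of 0.47. That share is near the 9.99% of all genes that rose. Klc3, a kinesin light chain, had 1.14 and 1.34 at passage 7, against 0.18 and -0.58 at passage 2, and rose by 1.44 ± 0.31 (adjusted p = 0.034). Klc4, another light chain, had 2.60 and 2.82 at passage 7, against 1.69 and 1.43 at passage 2, and rose by 1.15 ± 0.20 (adjusted p = 0.022). The light chains of the most general use, Klc1 and Klc2, changed by 0.74 and 0.76, at adjusted p of 0.041 and 0.038 but under the 2-fold limit.

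The opposing motor and the microtubule track were examined beside them. Cytoplasmic dynein, the motor that walks towards microtubule minus ends, and its cofactor dynactin were taken as 1 list. That list also holds their regulators and adaptors, such as Pafah1b1, Nde1, Bicd2 and Hook3. Of its 30 tested genes, 3 rose and 27 were not called, with a median of 0.40. This share too was near the 9.99% of all genes. Dynll2, a dynein light chain, had 4.66 and 4.45 at passage 7, against 3.30 and 2.42 at passage 2, and rose by 1.69 ± 0.34 (adjusted p = 0.029). Dctn2 (dynamitin), a dynactin subunit, had 5.87 and 6.19 at passage 7, against 4.87 and 4.81 at passage 2, and rose by 1.19 ± 0.20 (adjusted p = 0.021).

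Of 16 tested tubulins, the subunits of the microtubule itself, 3 were called higher and 1 lower, beside 9.99% and 9.42% of all genes, and the median was 0.10. Tubg2, a gamma-tubulin of nucleation sites, had 0.33 and 0.57 at passage 7, against -0.95 and -1.18 at passage 2, and rose by 1.51 ± 0.20 (adjusted p = 0.013). Tuba4a, an alpha-tubulin, had 0.26 and 0.48 at passage 7, against -0.96 and -1.27 at passage 2, and rose by 1.48 ± 0.21 (adjusted p = 0.014). Tube1, a centriolar tubulin, had -7.96 and -7.25 at passage 7, not well above background on either array, against -6.45 and -6.41 at passage 2, and was at least 1.1-fold lower. Its call (adjusted p = 0.047) rests on signals near background, and that bound does not reach the 2-fold limit.

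**Figure D4:**
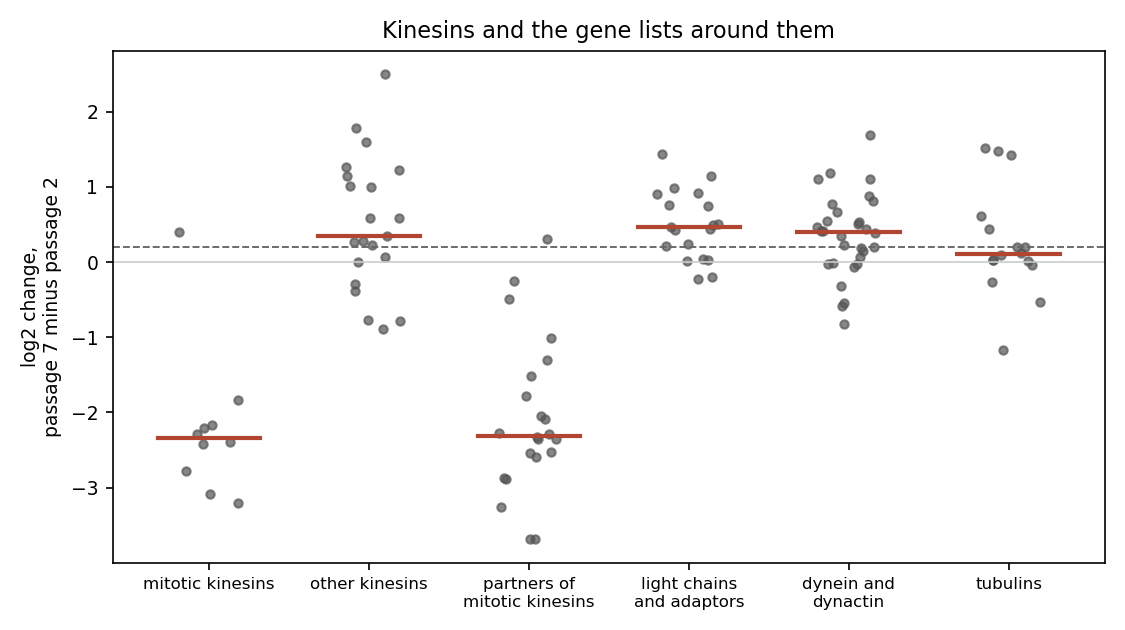
Change on the log2 scale, passage 7 minus passage 2, of every tested gene in 6 lists; each point is a gene, red bars are list medians, the dashed line is the median of all genes (0.20), and sideways scatter has no meaning. The medians are -2.34 for mitotic kinesins, 0.35 for other kinesins, -2.31 for partners of the mitotic kinesins and 0.47 for light chains and adaptors. They are 0.40 for dynein and dynactin with their regulators and adaptors, and 0.10 for tubulins.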

How the data were processed

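Total RNA of passage 7 and passage 2 MEFs (0.5 micrograms) was amplified linearly and labelled with Cy3, per the labels' protocols. Per the file headers, the scans were quantified in Agilent Feature Extraction 10.5.1.1. The deposited spot files hold intensity values, of which the processed signal is already background-subtracted. The authors' value table is on a log2 scale; each column followed log2 median intensity on its own array most closely (r of 0.9986 or higher), with column medians of 6.24 and 6.14 for passage 7 and 6.3 and 6.3 for passage 2, and its centring and background treatment are not given in the sources used here. The submitters' processing notes name limma, without a version.

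Of 31850 probes with a RefSeq accession, 31089 (97.6%) matched a gene in a mouse table of assembly GRCm38.p6. The array design uses another build, so probes have no coordinates here. From the log2 processed signal the array's 75th percentile was subtracted. Spots marked as outliers (14 to 61 per array) were dropped, and spots of 1 probe averaged. A gene was its probe of highest mean over the 4 arrays, kept where both arrays of a passage gave a signal well above background. Genes, and separately all probes, were fitted in R 4.3.3 with limma 3.58.1 (eBayes after lmFit, no covariate, two-sided, Benjamini-Hochberg adjustment over 13850 genes or 30873 probes), after tests on simulated data. Every adjusted p is from limma. With 2 arrays per passage, the number of arrays limits the precision. Slide position and passage cannot be told apart.

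Full values are given for all mitotic motors, other kinesins that were called, the 6 other kinesins of highest level, and up to 2 rises and 2 falls called per other list. Members, lists and motifs were chosen with earlier results of these data known, so lists are described by counts and medians without a test. Alternatives covered background correction, scaling, the authors' table, the filter, the choice of probe, the variance model, the fold limit, the replicate block and each left-out array.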

Additional observations from a re-analysis of the deposited data

How the results depend on the processing

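Mitotic kinesins called lower numbered 9 under each alternative run but normexp background correction, which called 0 of them and 0 genes lower or higher on the whole array (248 lower and 416 higher at an unadjusted p under 0.05 by limma). With marked backgrounds replaced, chosen after seeing the data, 479 genes were lower and 717 higher. The replicate block gave 651 lower and 522 higher genes, and 2 other kinesins higher; the authors' table gave 732 higher genes and no filter gave 897. Without 1 array, 682 to 1388 genes were lower and 464 to 2069 higher. Other kinesins called higher numbered 0 with normexp, 2 with marked backgrounds replaced, 3 in the authors' table and 2 to 4 without 1 array. Those called lower numbered 1 with median scaling, the authors' table, the mean of probes, the median probe and no fold limit, and 0 to 2 without 1 array.

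Relative to all genes, the mitotic median was -2.29 with normexp, -2.49 with marked backgrounds replaced, -2.42 with quantile normalisation, -2.35 in the authors' table, -2.67 without a filter, -2.62 for genes detected on all 4 arrays, -2.53 for the mean of probes, -2.49 for the median probe and -2.68 to -2.39 without 1 array. That of the other kinesins was 0.45 with normexp, 0.36 for the mean of probes, -0.01 without a filter and 0.15 to 0.36 without 1 array. The cause of these differences was not tested.

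All genes had a median change of 0.20, but 0.03 with median scaling, 0.02 with quantile normalisation and -0.06 in the authors' table; 51.5% of calls were higher, against 41.2% with median scaling and 35.3% in the authors' table. Kif1a lost its call with quantile normalisation (0.85) and under the replicate block (adjusted p = 0.057). Without 1 array, some kinesins gained a call: Kif5b without passage 2 replicate 2 (1.34), Kif2a (-1.21) and Kif21a (-1.08) without passage 2 replicate 1, and Kif19a without passage 7 replicate 1 (1.84). Same-numbered arrays share only a number. The deviation of replicate 1 from its passage mean correlated at -0.17 between passage 7 and passage 2, over 13850 genes. The crossed pairing, added after seeing the data, gave 1408 lower and 1659 higher genes, 9 mitotic kinesins lower and 7 other kinesins higher. Dim probes, such as those of Kif20a, are limited by signal over background.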
